A study of Mus musculus with 12 samples.

Results

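The core pluripotency regulators are the transcription factors and their close partners that keep embryonic stem cells (ESCs) in the pluripotent state, and 10 of them were followed here through differentiation: Pou5f1, Sox2, Nanog, Sall4, Utf1, Lin28a, Zfp281, Zscan10, Rif1 and L1td1. The genes are a list by name and no threshold on their signals enters it, although it was drawn up with earlier results of these data known. Each was read from the array row that carries its symbol alone, and from the row with the highest mean where several did, so that the 10 genes are 10 of 19938 genes with a single symbol. All 10 exceeded the background signal of 45 (log2 5.49) on at least 1 array and are among the 10880 genes tested.

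RNA came from mouse ESCs and from embryoid bodies (EBs), the aggregates that ESCs form in suspension without leukaemia inhibitory factor (LIF), taken at day 7. The WT cells are the HM1 line, and both knockouts carry the line name R1 in the labels, with the genotype Cbx5-/- for cells without HP1α (HP1αKO) and Cbx1-/- for cells without HP1β (HP1βKO). HP1 proteins are chromodomain proteins that bind methylated histone H3 in heterochromatin. The 6 groups, ESC WT, ESC HP1αKO, ESC HP1βKO, EB WT, EB HP1αKO and EB HP1βKO, hold 2 arrays each, for 12 arrays in all. All ESCs were grown with LIF on feeder fibroblasts and sorted for the surface antigen SSEA1 before harvest or before EB formation. Because line and genotype change together, a knockout and a line difference cannot be told apart in any comparison of a knockout with WT. The study's methods, however, call the WT line a littermate control. In EBs, which are mixtures of cell types, fewer cells that express a gene and less RNA in each cell cannot be told apart either.

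Pluripotency rests on a small circuit of DNA-binding proteins. Pou5f1 (Oct4, a POU-domain factor) and Sox2 (an HMG-box factor) bind DNA side by side at many enhancers and promoters, Nanog (a homeodomain factor) acts with them, and all of them activate their own genes and each other's. Sall4, Zfp281 and Zscan10 are zinc finger transcription factors tied to this circuit, Utf1 is a chromatin-associated protein of pluripotent cells, and Rif1 controls replication timing and DNA repair pathway choice. Lin28a is an RNA-binding protein that blocks maturation of the let-7 microRNAs, and L1td1 is an RNA-binding protein that associates with Lin28a. On differentiation the circuit is normally switched off, while Sox2 stays on in neural progenitors and Lin28a stays on for a time in early embryonic tissues.

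The promoters of Pou5f1, Nanog, Sox2 and Lin28a are shown as those of the 3 factors of the central circuit and of the member that was low in HP1βKO EBs, described below. The reference promoter table (RefSeq, build GRCm38.p6, windows of 300 bases from 250 before to 50 after the start) held 10 windows for 8 of the 10 genes, with no entry for Sall4 and Rif1. Only the 250 bases before the start are printed, 5′ to 3′ on the gene's strand. They lie at chr17:35505782-35506031 (plus strand) for Pou5f1, chr6:122707239-122707488 (plus strand) for Nanog, chr3:34649745-34649994 (plus strand) for Sox2 and chr4:134018817-134019066 (minus strand) for Lin28a. Capitals mark a GC box (GGGCGG) in Pou5f1, the octamer and SOX element (TTTGCAT, 1 base, ACAATG) in Nanog, the octamer core (ATGCAAA) in Sox2 and the SOX core (ACAATG, here as its reverse complement) in Lin28a.
Pou5f1: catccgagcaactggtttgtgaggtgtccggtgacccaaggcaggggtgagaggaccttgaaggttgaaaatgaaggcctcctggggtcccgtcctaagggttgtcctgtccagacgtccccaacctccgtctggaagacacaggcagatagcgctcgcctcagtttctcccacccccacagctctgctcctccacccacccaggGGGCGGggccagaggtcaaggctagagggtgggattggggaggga
Nanog: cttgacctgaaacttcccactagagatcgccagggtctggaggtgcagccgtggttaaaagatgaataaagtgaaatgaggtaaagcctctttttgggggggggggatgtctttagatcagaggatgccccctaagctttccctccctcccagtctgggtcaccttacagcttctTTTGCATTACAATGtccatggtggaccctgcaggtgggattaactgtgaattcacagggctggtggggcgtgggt
Sox2: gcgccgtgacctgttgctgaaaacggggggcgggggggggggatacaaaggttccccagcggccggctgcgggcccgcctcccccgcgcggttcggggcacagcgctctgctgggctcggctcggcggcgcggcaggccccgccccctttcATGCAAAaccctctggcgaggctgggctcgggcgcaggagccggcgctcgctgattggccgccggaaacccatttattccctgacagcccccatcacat
Lin28a: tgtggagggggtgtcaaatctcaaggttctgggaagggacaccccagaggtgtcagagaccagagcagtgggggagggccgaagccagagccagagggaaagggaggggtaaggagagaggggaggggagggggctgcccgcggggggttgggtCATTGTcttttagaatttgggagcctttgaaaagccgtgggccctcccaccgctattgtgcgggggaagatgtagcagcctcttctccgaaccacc

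Each motif was searched on both strands, and a composite match is also counted as an octamer and as a SOX match. The composite element was found in Nanog's windows, with its first base at position -75 from the start printed here, and in 2 of 32851 promoter windows in all (0.00609%), both of them Nanog's. The octamer core was found for 2 of the 8 genes (Nanog, only within its composite element, and Sox2) and in 4.63% of all windows. The SOX core was found for 3 of the 8 genes (Nanog, Lin28a and a second start of Pou5f1) and in 12.6% of all windows. The GC box was found for 5 of the 8 genes and in 35.7% of all windows. These matches describe the letters only, and binding was not measured.

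Signals of the targeted genes show how far the arrays match their labels. Cbx1 read between 7.59 and 7.99 (log2 signal) on the 4 HP1βKO arrays and between 9.36 and 10.05 on the 8 others. Cbx5 read 9.20 and 9.21 on the EB HP1αKO arrays and between 10.26 and 10.40 on the other EB arrays. In ESCs, Cbx5 went against the label on 2 arrays. It read 8.04 on the library labelled ESC HP1αKO replicate 1 but 1.96 log2 units higher on the library labelled replicate 2, and 9.66 and 8.29 on the libraries labelled ESC WT replicates 1 and 2. Results that use ESC WT or ESC HP1αKO are therefore also given without those 2 libraries (ESC WT replicate 2 and ESC HP1αKO replicate 2) where that changed a call. Replicates were also farther apart in ESCs, where the difference of a pair of arrays had an SD over genes of 0.39 to 0.57, than in EBs, with 0.13 to 0.20. Naive pluripotency genes, which mark ESCs, averaged 7.97 to 9.24 (mean log2 signal) over the ESC arrays and 5.32 to 6.57 over the EB arrays. Feeder fibroblast markers (15 of 17 tested) averaged 7.55, 6.91 and 6.69 on replicate 1 of ESC WT, HP1αKO and HP1βKO, against 5.93 to 5.99 on replicate 2, with 10 to 14 and 9 to 10 of the 15 above background. The naive genes averaged 8.22, 8.61 and 7.97 on replicate 1 and 9.24, 9.02 and 8.60 on replicate 2, and Nanog in WT read 10.33 and 11.10. The part of these markers in the results was not tested.

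In ESCs no regulator was called different between the 3 genotypes. Pou5f1 read 11.30 and 11.24 in WT, 11.35 and 11.26 in HP1αKO and 11.27 and 11.31 in HP1βKO, so that the 6 arrays lay within 0.11 of each other. For the other 9 genes the 6 ESC arrays spanned between 0.38 (Rif1) and 0.85 (L1td1). By limma the adjusted p was at least 0.91 in HP1αKO and HP1βKO against WT and in HP1βKO against HP1αKO, and 0 members had an unadjusted p under 0.05 in any of these comparisons. Over all genes tested the share called was 0.0% in HP1αKO against WT, 0.0% in HP1βKO against WT and 0.00919% in HP1βKO against HP1αKO, while 116, 638 and 552 genes had an unadjusted p under 0.05. Without the 2 ESC libraries of opposed Cbx5, 68, 153 and 43 of all genes tested were called in these comparisons, and with replicate numbers as a block for the ESC arrays 0, 52 and 55. In HP1βKO against WT up to 118 were called with an array left out. No member was called in any of those fits. In the main fit the targeted gene Cbx1 was itself not called in HP1βKO against WT, with group means of 7.79 and 9.73. A regulator not called here is therefore not shown to be unchanged. The intervals say what could have been missed. For Pou5f1 in HP1βKO against WT the 95% interval ran from -0.30 to 0.35, for Sox2 from -0.63 to 0.25, and for Nanog, whose WT replicates read 10.33 and 11.10, from -0.85 to 0.32.

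**Figure D1:**
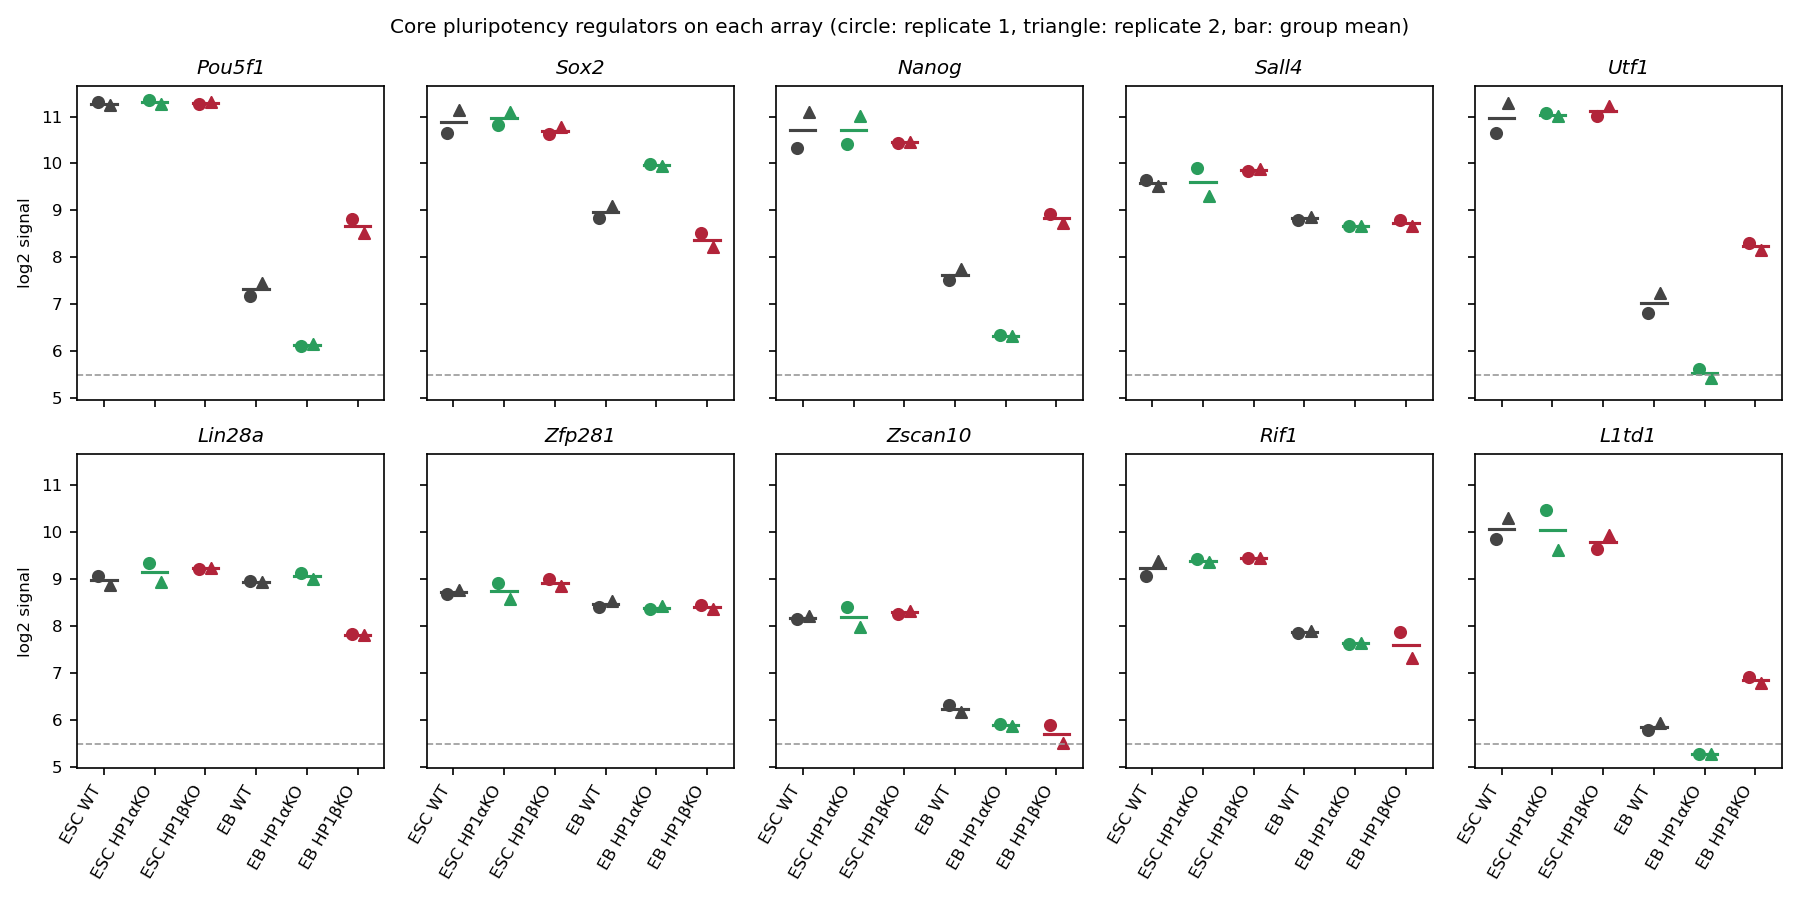
Log2 signal of the 10 regulators on each of the 12 arrays, by group, with replicate 1 as a circle, replicate 2 as a triangle, the group mean as a bar and the background of 5.49 as a dashed line. Pou5f1, Nanog, Utf1 and L1td1 fell in all EBs and were ordered HP1βKO, WT, HP1αKO from highest to lowest, Sox2 had the opposite order, and Lin28a was low in HP1βKO EBs.

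From ESC to day 7 EB most of the regulators fell, by very different amounts. In WT, 8 of the 10 fell, and Lin28a and Zfp281 were not called. In HP1αKO the same 8 fell, and in HP1βKO all 10 fell. The share of all genes tested that fell was 14.2% in WT, 16.5% in HP1αKO and 15.1% in HP1βKO, and the share that rose was 22.0%, 25.0% and 22.0%. With each array left out, between 1911 and 4443 of all genes tested were called in WT in either direction, and between 7 and 8 members. The median log2 difference was -1.93, -2.02 and -2.09 over the 10 genes against 0.05, 0.05 and 0.04 over all genes tested. Medians of near-equal size thus stood over single genes that kept very different shares of their ESC signal in the 3 genotypes.

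**Figure D2:**
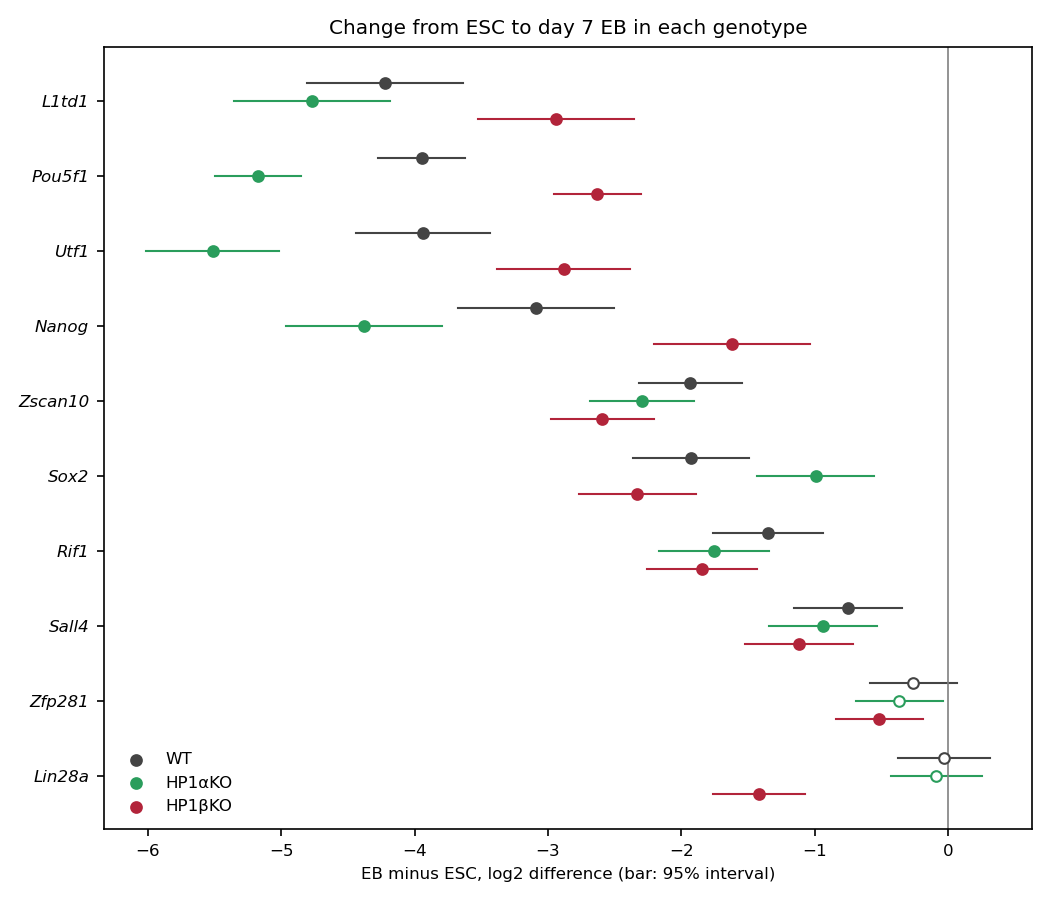
Log2 difference between day 7 EBs and ESCs for each regulator in WT, HP1αKO and HP1βKO, with limma's 95% interval as a bar and filled points for an adjusted p below 0.05. The points of L1td1, Pou5f1, Utf1 and Nanog lay farthest left in HP1αKO and farthest right in HP1βKO, whereas Sox2 fell least in HP1αKO and Lin28a fell in HP1βKO.

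Pou5f1 read 7.19 and 7.46 in WT EBs, 6.11 and 6.15 in HP1αKO EBs and 8.81 and 8.51 in HP1βKO EBs. The 3 pairs did not overlap, and all 6 EB arrays lay more than 2 log2 units below the lowest ESC array. Pou5f1 thus kept 6.48% of its ESC signal in WT (95% interval 5.18 to 8.12), 2.77% in HP1αKO (2.21 to 3.47) and 16.2% in HP1βKO (12.9 to 20.2). In EBs it was 2.53-fold higher in HP1βKO than in WT (log2 difference 1.34 ± 0.14 (SE, n = 2 and 2), limma adjusted p = 0.00106), a call that held with each of the 12 arrays left out. It was 2.29-fold lower in HP1αKO than in WT (-1.19 ± 0.14, adjusted p = 0.00499), and this call was lost without EB WT replicate 2 (-1.06) or without either EB HP1αKO array (-1.17 and -1.21). Where a group is left with 1 array, that array is assumed to vary like the other groups.

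Nanog followed the same order. It read 7.51 and 7.74 in WT EBs, 6.35 and 6.32 in HP1αKO EBs and 8.92 and 8.74 in HP1βKO EBs, again without overlap, against 10.33 to 11.10 in ESCs. It kept 11.8% of its ESC signal in WT (95% interval 7.85 to 17.6), 4.80% in HP1αKO (3.20 to 7.20) and 32.5% in HP1βKO (21.7 to 48.7). The EB difference of HP1βKO and WT was 1.20 ± 0.26 (adjusted p = 0.0397). The call was lost in 8 of the 12 fits with an array left out, those without any of the 6 EB arrays and without either ESC HP1βKO array, with differences of 1.08 to 1.32. In HP1αKO EBs the difference from WT was -1.29 ± 0.26 (adjusted p = 0.0521), just outside the threshold. With replicate numbers entered as a block for the ESC arrays, where same-numbered arrays vary together, that adjusted p was 0.00539, and without the 2 ESC libraries of opposed Cbx5 it was 0.00124. It was also called without any 1 of the ESC arrays of WT and HP1αKO.

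Sox2 ran the other way. It read 8.83 and 9.09 in WT EBs, 9.98 and 9.95 in HP1αKO EBs and 8.52 and 8.22 in HP1βKO EBs, so that HP1αKO was highest and HP1βKO lowest, with no overlap. It kept 26.3% of its ESC signal in WT (95% interval 19.4 to 35.6), 50.3% in HP1αKO (37.1 to 68.1) and 19.9% in HP1βKO (14.7 to 27.0). In EBs it was 2.00-fold higher in HP1αKO than in WT (1.00 ± 0.19, adjusted p = 0.0458). This call lay close to the threshold and was lost in 8 of the 12 fits with an array left out (0.87 to 1.13), those without any of the 6 EB arrays or either ESC HP1βKO array, and with a background signal of 100 or with every array row as a feature (1.00 in both). In HP1βKO the EB difference from WT was -0.59 ± 0.19 (adjusted p = 0.195, 0.0477 with the block among ESCs and 0.0380 without the 2 ESC libraries of opposed Cbx5), and it was called with array weights or with the EB arrays alone.

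None of the 3 zinc finger factors was called between the EB groups. Sall4 read between 8.67 and 8.85 on the 6 EB arrays and between 9.31 and 9.90 on the 6 ESC arrays. It fell in WT, HP1αKO and HP1βKO (-0.75, -0.94 and -1.12, each ± 0.18, adjusted p = 0.0111, 0.00323 and 0.00148), and the call in WT was lost without either EB WT array (-0.73 and -0.78). Zfp281, which binds GC-rich promoter elements, read between 8.36 and 8.53 on the EB arrays and between 8.58 and 9.0 on the ESC arrays. It fell in HP1βKO (-0.51 ± 0.14, adjusted p = 0.0211), a call lost without ESC HP1βKO replicate 1 (-0.43) or either EB HP1βKO array (-0.56 and -0.47). Its differences in WT (-0.26, adjusted p = 0.189) and in HP1αKO (-0.36, adjusted p = 0.0702) were not called. The latter was called with the block among ESCs (-0.43, adjusted p = 0.0329), without the 2 ESC libraries of opposed Cbx5 and without ESC HP1αKO replicate 2 alone (-0.53 in both), and with arrays centred on their median (-0.50). Zscan10 read between 5.51 and 6.31 in EBs against 7.97 to 8.39 in ESCs and kept 26.2% of its ESC signal in WT, 20.4% in HP1αKO and 16.6% in HP1βKO. The largest difference of the 3 between EB groups was that of Zscan10 in HP1βKO against WT (-0.54, 95% interval -0.93 to -0.15, adjusted p = 0.179), which was called with array weights or with the EB arrays alone.

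Utf1, the chromatin-associated member, moved with Pou5f1. It read 6.81 and 7.24 in WT EBs, 5.62 and 5.43 in HP1αKO EBs and 8.32 and 8.15 in HP1βKO EBs, so that in HP1αKO it lay at the background, with replicate 2 just under it. It kept 6.52% of its ESC signal in WT (95% interval 4.61 to 9.23), 2.19% in HP1αKO (1.55 to 3.09) and 13.6% in HP1βKO (9.59 to 19.2). In EBs it was higher in HP1βKO than in WT (1.21 ± 0.22, adjusted p = 0.0191) and lower in HP1αKO than in WT (-1.50 ± 0.22, adjusted p = 0.0139). Each of these calls was lost without any 1 of the 4 arrays compared, with differences of 1.00 to 1.43 and of -1.71 to -1.28. Rif1, the replication timing factor, read between 7.32 and 7.89 in EBs and fell in WT, HP1αKO and HP1βKO (-1.35, -1.75 and -1.84, adjusted p = 0.000666, 0.000115 and 0.000105). It was not called between EB groups, and the HP1βKO EB arrays lay farthest apart at 7.87 and 7.32.

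L1td1, the first of the RNA-binding members, had the largest fall of the 10 genes in WT. It read 5.77 and 5.92 in WT EBs, 5.27 and 5.26 in HP1αKO EBs and 6.92 and 6.78 in HP1βKO EBs, against 9.61 to 10.46 in ESCs. Both HP1αKO EB arrays lay under the background, so that L1td1 was at least 23.4-fold lower there than in HP1αKO ESCs. It kept 5.37% of its ESC signal in WT (95% interval 3.58 to 8.05) and 13.0% in HP1βKO (8.69 to 19.6). The EB difference of HP1βKO and WT was 1.00 ± 0.26 (adjusted p = 0.0862, 0.00325 without the 2 ESC libraries of opposed Cbx5), although the arrays did not overlap. It was called without either ESC HP1αKO array, with array weights and with the EB arrays alone.

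Lin28a was low in HP1βKO EBs alone by its signals. It read 8.94 and 8.93 in WT EBs and 9.12 and 8.99 in HP1αKO EBs, within the 8.87 to 9.34 of the ESC arrays, but 7.82 and 7.81 in HP1βKO EBs. It kept 98.1% of its ESC signal in WT (95% interval 77.3 to 124), 94.1% in HP1αKO (74.2 to 119) and 37.5% in HP1βKO (29.5 to 47.5). In EBs it was 2.19-fold lower in HP1βKO than in WT (-1.13 ± 0.15, adjusted p = 0.00421), a call lost without EB WT replicate 2 (-1.13) and kept in the 11 other fits with an array left out. In HP1αKO EBs it differed from WT by 0.11 (95% interval -0.23 to 0.46). Lin28a thus fell where Pou5f1, Nanog and Utf1 remained highest.

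Between the genotypes in EBs, HP1βKO had 3 members called higher than WT (Pou5f1, Nanog and Utf1) and 1 lower (Lin28a), where 1.63% of all genes tested were called higher and 1.62% lower. HP1αKO had 1 called higher than WT (Sox2) and 2 lower (Pou5f1 and Utf1), where 0.763% of all genes tested were called higher and 0.478% lower. These comparisons share the WT arrays. The number of all genes called moved with the setting, from 353 in HP1βKO against WT to 972 without the 2 ESC libraries of opposed Cbx5 and 701 with the block among ESCs, and from 135 in HP1αKO against WT to 447 and 279, so that the member calls gained there stand against a higher background. In HP1βKO against HP1αKO, 4 members were called higher and 2 lower, where 1.28% of all genes tested were called higher and 2.45% lower. Pou5f1 was 5.78-fold higher in HP1βKO than in HP1αKO EBs (2.53 ± 0.14, adjusted p = 1.42e-05), Nanog 5.64-fold (2.50 ± 0.26, adjusted p = 0.000525) and Utf1 6.53-fold (2.71 ± 0.22, adjusted p = 0.000125). Utf1 lay at the background in HP1αKO EBs, so that the size of its fold is uncertain. L1td1 was at least 2.56-fold higher (fitted difference 1.58, adjusted p = 0.00890, lost without any of the 4 arrays compared at 1.51 to 1.65). Sox2 was 3.02-fold lower (-1.60 ± 0.19, adjusted p = 0.00155) and Lin28a 2.36-fold lower (-1.24 ± 0.15, adjusted p = 0.00161). The calls of Pou5f1, Nanog, Utf1, Sox2 and Lin28a held with each of the 12 arrays left out. Sall4, Zfp281, Zscan10 and Rif1 differed by 0.19 or less in size and were not called.

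**Figure D3:**
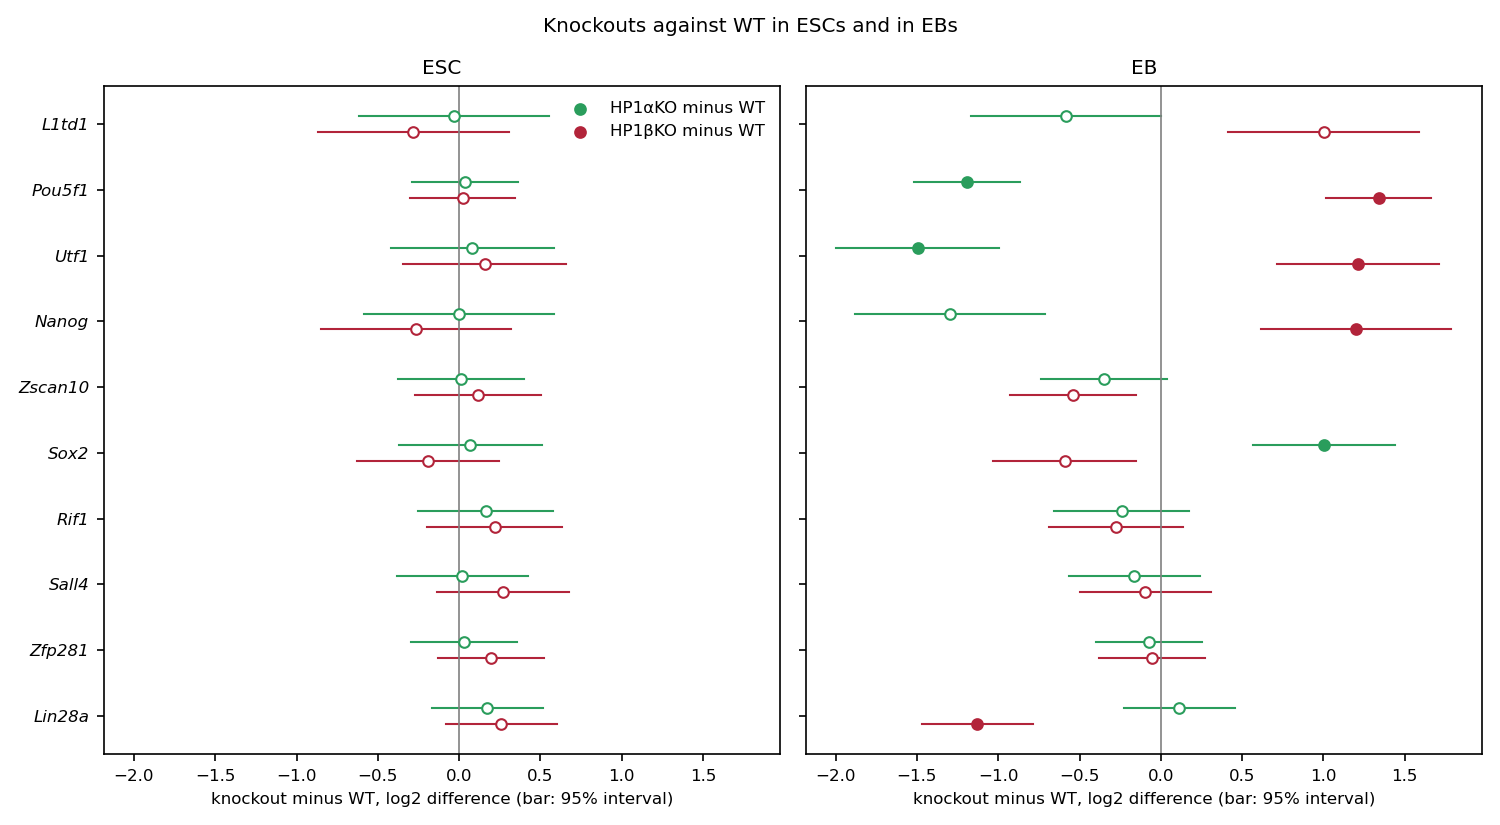
Log2 difference of each knockout from WT in ESCs (left) and in EBs (right), with limma's 95% interval as a bar and filled points for an adjusted p below 0.05. In ESCs every interval includes 0, and in EBs Pou5f1, Utf1 and Nanog lie below 0 in HP1αKO and above 0 in HP1βKO, Sox2 lies above 0 in HP1αKO, and Lin28a lies below 0 in HP1βKO.

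Whether the fall itself differed between genotypes was tested as the difference of the EB minus ESC differences. Against WT, the change in HP1βKO was smaller for Pou5f1 (1.32 ± 0.20, adjusted p = 0.0160) and larger for Lin28a (-1.39 ± 0.22, adjusted p = 0.0160), where 0.616% and 0.680% of all genes tested were called in these directions. The Pou5f1 call was lost without ESC HP1βKO replicate 1 (1.30), EB WT replicate 1 (1.18) or EB HP1βKO replicate 1 (1.17). The Lin28a call was lost without ESC HP1βKO replicate 1 or any of the 4 EB arrays of WT and HP1βKO (-1.40 to -1.38). Nanog (1.47, adjusted p = 0.105) was called with the block among ESCs (adjusted p = 0.0124), without the 2 ESC libraries of opposed Cbx5 (1.08, adjusted p = 0.0176) and without ESC WT replicate 1 alone (1.85). L1td1 (1.28, adjusted p = 0.167) was called without those 2 libraries (1.06, adjusted p = 0.0273) and without either ESC HP1αKO array. Utf1 (1.05, adjusted p = 0.187) was called without ESC WT replicate 1 (1.37).

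In HP1αKO the change was not called different from WT for any member, and 4 members had an unadjusted p under 0.05 where 615 of all genes tested did. The closest was Pou5f1 (-1.23, adjusted p = 0.0566), which was called with the block among ESCs (adjusted p = 0.0256), without a background limit, with centred arrays and with a variance trend. Utf1 (-1.58, adjusted p = 0.123) was called with that block (adjusted p = 0.0340) and without ESC WT replicate 2 (-1.90), and Utf1 (-1.93) and Nanog (-1.38) were called without the 2 ESC libraries of opposed Cbx5 (adjusted p = 0.0264 for both). Over all genes tested 0.175% were called higher and 0.0551% lower in this comparison. Between the knockouts the change in HP1βKO was the smaller for Pou5f1 (2.55, adjusted p = 0.000334), Nanog (2.76, adjusted p = 0.00483), Utf1 (2.63, adjusted p = 0.00260) and L1td1 (1.83, adjusted p = 0.0397), and the larger for Sox2 (-1.34, adjusted p = 0.0443) and Lin28a (-1.33, adjusted p = 0.0133). Here 0.625% of all genes tested were called higher and 1.35% lower. Pou5f1, Nanog and Utf1 kept their calls with each array left out. L1td1 lost its call with centred arrays and in 8 of the 12 fits with an array left out (1.68 to 1.99), Sox2 with a background of 100 and in 10 (-1.48 to -1.19) and Lin28a in 5 (-1.39 to -1.26).

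The genes nearest to each member in profile were found as those with the lowest mean absolute distance over the 12 arrays, each gene centred on its own mean, and serve as a description. Nearest to Pou5f1 were Utf1 (mean distance 0.17 log2 units), Gdf3 (0.27) and L1td1 (0.31), 2 of which are themselves members. Nearest to Nanog were Gm6083 (0.20), Dppa5a (0.34) and Dppa4 (0.36), and nearest to Utf1 after Pou5f1 were Fbxo15 (0.27) and Zfp42 (0.30). L1td1 lay closest to Lefty1 (0.19), a Nodal antagonist. Sox2 lay closest to Map7d2 (0.15), Uchl1 (0.19) and Usp44 (0.21), and Lin28a to Bex1 (0.18), Tspan5 and Tubb4a (0.19 each). Rif1 lay closest to Plcg2 (0.14), Zscan10 to Tuba4a (0.11), Sall4 to Adi1 (0.08) and Zfp281 to Trmt10c (0.04), where small distances go with small changes.

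Naive pluripotency genes, a list of 22 that includes Zfp42, Esrrb, Klf4 and Dppa5a and none of the 10 members, were all measured. From ESC to EB, 21 fell in WT, 21 in HP1αKO and 15 in HP1βKO, with median log2 differences of -2.70, -3.29 and -1.84. Tested as the difference of changes, 1 of the 22 was called higher in HP1βKO than in WT (0.616% of all genes tested). In HP1αKO against WT 0 were called, and in HP1βKO against HP1αKO 5 were called higher (0.625%). In ESCs the list's median was -0.45 in HP1βKO against WT, with 0 called. In HP1βKO the 7 not called included Dppa2 (-0.74, adjusted p = 0.196), Stat3 (-0.06, adjusted p = 0.776), Tet2 (-0.36, adjusted p = 0.577) and Prdm14 (-0.79, adjusted p = 0.286). Prdm14 lay under the background on every HP1βKO array, in ESCs (5.13 and 5.44) as in EBs, so that no fall could be measured. In EBs 5 of the 22 were called higher in HP1βKO than in WT, namely Dppa2 (1.87), Dppa5a (1.37), Stat3 (0.79), Nr0b1 and Gdf3, and 0 lower, beside 1.63% and 1.62% of all genes tested. Nr0b1 and Gdf3 lay under the background on both WT EB arrays and were at least 1.75-fold and 1.68-fold higher in HP1βKO. In HP1αKO, Dppa5a was called lower than in WT (-2.31, adjusted p = 0.00539) and 0 genes higher. Dppa5a, a KH-domain protein of early embryonic cells, read 9.56 and 9.62 in WT EBs, 7.48 and 7.09 in HP1αKO EBs and 10.91 and 11.02 in HP1βKO EBs, the same order as Pou5f1. The list's median difference in EBs was 0.52 in HP1βKO and -0.36 in HP1αKO against WT, beside -0.01 and 0.03 over all genes tested. Of the 22 genes, 10 to 11 lay above background on the WT EB arrays, 7 on those of HP1αKO and 16 to 17 on those of HP1βKO, so that the medians include signals at background.

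**Figure D4:**
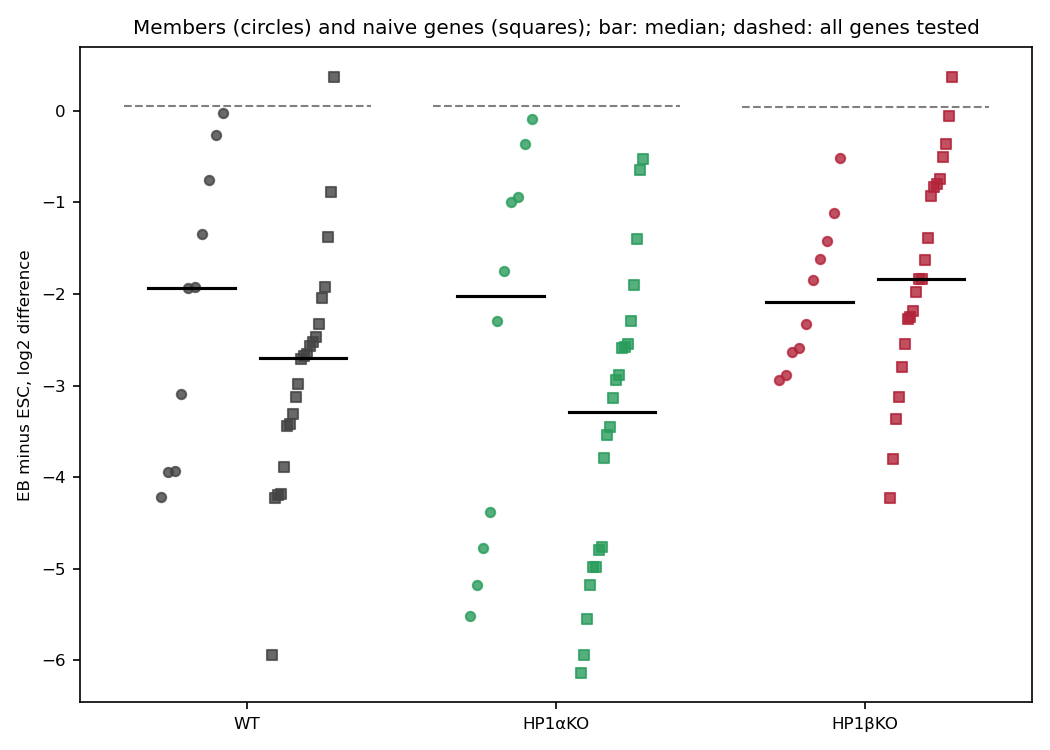
Log2 difference between EBs and ESCs for the 10 regulators (circles) and the 22 naive pluripotency genes (squares) in each genotype, with their medians as bars and the median of all genes tested as a dashed line. The naive genes' median was -2.70 in WT, -3.29 in HP1αKO and -1.84 in HP1βKO, while that of the regulators stayed between -1.93 and -2.09.

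Proteins that bind Pou5f1 or Nanog, a list of 30 chromatin and transcription factors of which 29 were measured, gave the following counts. From ESC to EB, 3 fell and 3 rose in WT, 7 fell and 2 rose in HP1αKO, and 7 fell and 1 rose in HP1βKO, beside shares over all genes tested of 14.2% and 22.0%, 16.5% and 25.0%, and 15.1% and 22.0%. In EBs 2 were lower in HP1βKO than in WT, the zinc finger factor Sall1 (-1.52, adjusted p = 0.00991) and Arid3b (-0.85), where 1.62% of all genes tested were lower, and 0 were called in HP1αKO against WT, where the list's median was -0.07.

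Of the Lin28 and let-7 pathway, 9 of 12 listed genes were measured, and in EBs 2 were lower in HP1βKO than in WT, beside 1.62% of all genes tested. Lin28b, the paralogue of Lin28a, read 7.29 and 7.38 in WT EBs, 7.54 and 7.51 in HP1αKO EBs and 6.13 and 5.81 in HP1βKO EBs. It was thus lower in HP1βKO than in WT (-1.36 ± 0.16, adjusted p = 0.00212), as Lin28a was, and the other gene called was Arid3b. Hmga2, a let-7 target, read 9.03 and 9.32 in WT EBs, 9.79 and 9.82 in HP1αKO EBs and 10.06 and 9.65 in HP1βKO EBs, and was not called in either knockout against WT. No gene of the list was called in HP1αKO against WT.

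Markers of the cell types that EBs can hold moved between the same groups, and their part in the members' differences was not tested. Neural progenitor markers, 11 of 15 tested, had a mean log2 signal of 6.05 to 6.19 in WT EBs, 6.07 to 6.08 in HP1αKO EBs and 5.14 to 5.16 in HP1βKO EBs, where 5 of the 11 lay above background on each array. In HP1βKO against WT 5 were called lower (1.62% of all genes tested), namely Pax3, Sox21, Zic1, Fabp7 and Pax6. All 5 lay under the background in HP1βKO EBs, so that Pax3 was at least 1.72-fold lower, Sox21 at least 1.28-fold, Zic1 at least 1.17-fold and Fabp7 at least 1.11-fold, and for Pax6, under the background in WT too, no fold is given. In HP1αKO, Sox21, which like Sox2 is a SOX factor of neural progenitors, was higher than in WT (0.93, adjusted p = 0.0426). Pax3 and Zic1 were called lower, with HP1αKO under the background and the same bounds. Over all genes tested 0.763% were called higher and 0.478% lower in HP1αKO than in WT EBs. Pax6 read 4.95 and 5.17 in WT EBs, 5.65 and 6.07 in HP1αKO EBs and 3.98 and 4.04 in HP1βKO EBs, so that it was above background in HP1αKO alone. Otx2, a homeodomain factor of primed pluripotent and anterior neural cells, read 7.78 and 7.97, 8.84 and 8.79, and 5.84 and 5.51 in WT, HP1αKO and HP1βKO EBs. It was the 1 gene of 12 tested formative and primed pluripotency genes called in HP1βKO against WT EBs (-2.20, adjusted p = 0.00283), and 0 were called in HP1αKO.

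**Figure D5:**
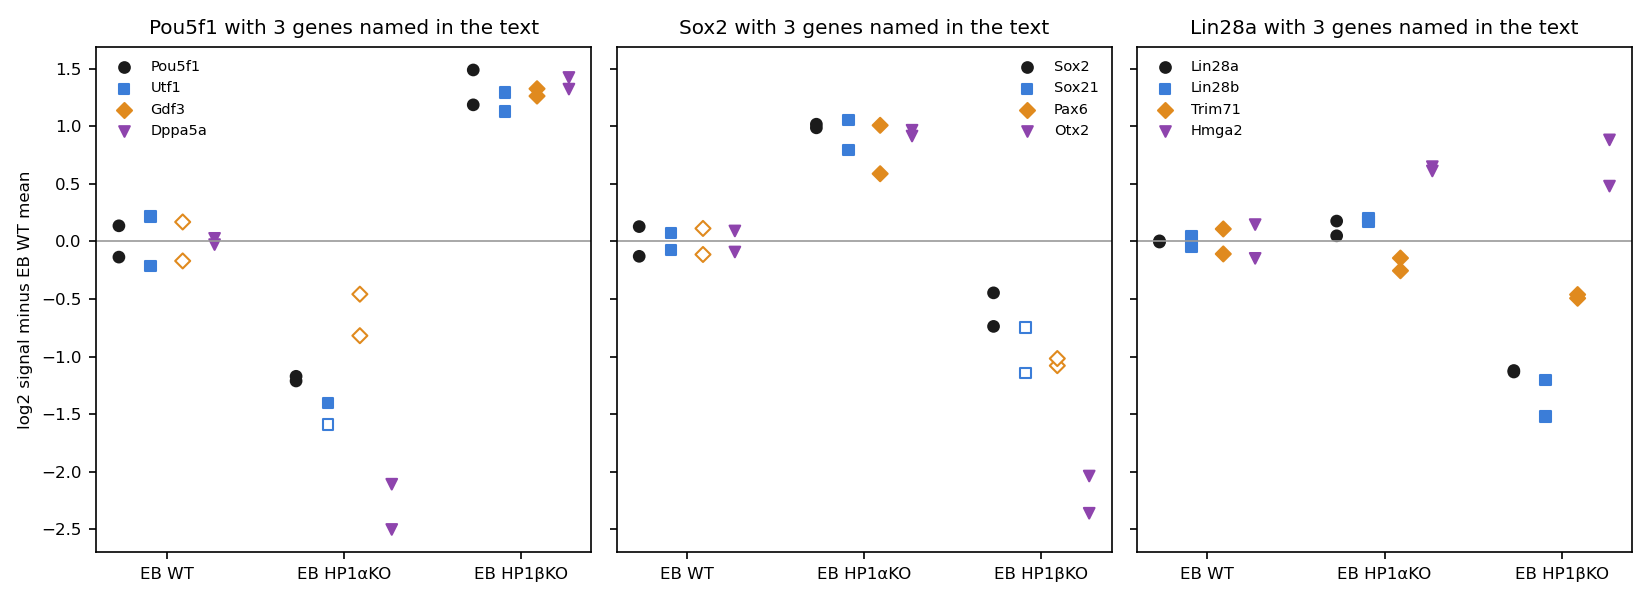
Log2 signal on each EB array minus the EB WT mean for Pou5f1, Sox2 and Lin28a (black circles), each with 3 genes picked for display after their values were seen, and with open markers for signals under the background. Utf1 and Dppa5a lay below WT in HP1αKO and above it in HP1βKO as Pou5f1 did, Gdf3 was above background in HP1βKO alone, Otx2 had the reverse order as Sox2 did, Sox21 and Pax6 were highest in HP1αKO, and Lin28b was low in HP1βKO beside Lin28a while Hmga2 was not. Pax3 and Zic1, from the same neural list as Sox21 and Pax6, are not shown and were lower in HP1αKO than in WT.

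The next counts stand beside 1.63% of all genes tested called higher and 1.62% lower in HP1βKO than in WT EBs. In HP1αKO these shares were 0.763% and 0.478%. Heart muscle markers, all 10 of 10 tested, averaged 8.22 to 8.36 in WT EBs, 9.11 to 9.16 in HP1αKO EBs and 5.84 to 6.13 in HP1βKO EBs. Of them, 9 were lower in HP1βKO and 3 higher in HP1αKO than in WT. Visceral endoderm markers, 10 of 12 tested, averaged 7.33 to 7.55, 6.96 to 7.00 and 7.38 to 7.60 in the same order, with 1 higher in HP1βKO and 3 lower and 1 higher in HP1αKO than in WT. Feeder fibroblast markers averaged 7.68 to 7.76, 8.37 to 8.43 and 8.23 to 8.34, with 1 higher in each knockout than in WT. Germ cell markers, 10 of 12 tested, averaged 4.74 to 4.88, 4.54 to 4.63 and 4.94 to 4.99, with 3 of the 10 above background on every EB array and 0 called in either knockout against WT. Those 3 were Kit, Tfap2c and Prdm1. Kit read 8.35 and 8.45 in WT EBs and 9.28 and 9.23 in HP1βKO EBs. Tfap2c read 6.18 and 6.18 against 6.93 and 6.78. Prdm1 went the other way, with 6.47 and 6.30 against 6.15 and 6.05.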

How the data were processed

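The authors scanned 12 single-channel Affymetrix arrays of 6 groups with 2 arrays each and summarised them by RMA in Affymetrix Expression Console, and the deposited values are log2 signals, used here as they stand. Neither the software versions nor the genome build of the annotation was given in the sources used here. Of 35556 features, 21789 carry 1 gene symbol in the platform annotation, 1621 several and 12146 none. The methods name an exon array, whereas the identifiers match the gene array's annotation. Array replicates are called biological, but separate cultures are not stated, so p-values may measure technical spread, and the number of arrays limits the precision.

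Features with 1 symbol were kept, the one with the highest mean for each gene, and 10880 of 19938 genes exceeded a signal of 45, the background in the methods, on at least 1 array. limma 3.58.1 in R 4.3.3 fitted 6 group means on all 12 arrays (6 residual and 3.31 prior degrees of freedom), with two-sided p-values adjusted by Benjamini-Hochberg within each comparison and a threshold of 0.05. The exact permutation test of 2 against 2 arrays cannot pass that threshold (smallest two-sided p 0.333) and was not used. Percentages of the ESC signal kept are the linear form of the EB minus ESC difference. Same-numbered arrays varied together in ESCs (correlations of replicate differences 0.401, 0.497 and 0.300) but not in EBs (0.112, -0.454 and -0.092), so that the replicate block was taken as meaningful among ESCs only. The script was tested on simulated data. The members and the gene lists were chosen with earlier results of these data known, and named genes are the members, the targeted genes, list genes that passed a test or define a cell type, and the 3 nearest profiles of each member. Alternatives were another background or none, median-centred arrays, every row as a feature, array weights, a variance trend, fits on fewer groups, the replicate block, and each array left out. Probe sequences were not used here, so signal from near-identical copies such as pseudogenes of Pou5f1 and Nanog was not separated.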

Additional observations from a re-analysis of the deposited data

Results flagged for a closer look

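The change from ESC to EB differed between genotypes for the following members by limma's test of the difference of differences. Against WT, HP1βKO differed for Pou5f1 by 1.32 (adjusted p = 0.0160) and for Lin28a by -1.39 (adjusted p = 0.0160), which are opposite directions. Against HP1αKO, HP1βKO differed for Pou5f1 by 2.55 (adjusted p = 0.000334), for Nanog by 2.76 (adjusted p = 0.00483), for Utf1 by 2.63 (adjusted p = 0.00260) and for L1td1 by 1.83 (adjusted p = 0.0397). In the same comparison Sox2 differed by -1.34 (adjusted p = 0.0443) and Lin28a by -1.33 (adjusted p = 0.0133). HP1αKO EBs gave L1td1 a signal under the background on both arrays, so that its fitted difference is not a measured size. Utf1 lay at the background in those EBs, so that the size of its difference is uncertain. The line name changes with the genotype in the comparisons with WT and is the same for both knockouts.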

How the results depend on the processing

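Over the 12 comparisons, 22 alternatives gave 2610 values for the members. Of these, 2494 kept their side of the threshold, 72 lost a call and 44 gained a call. Where either fit gave a call, 0 reversed in direction. Differences called in neither fit were not counted as reversed, and some changed sign. Nanog in HP1βKO against WT in ESCs, for example, ran from -0.65 to 0.12 with an array left out. In EBs the count of members lower in HP1βKO than in WT was 1, and became 3 with array weights, 3 with the arrays of that state alone, 2 without the 2 ESC libraries of opposed Cbx5, 2 with the replicate block among ESCs, and 0 to 1 with each array left out. The count higher was 3, and 1 to 4 with each array left out. For HP1αKO against WT in EBs the count lower was 2, and became 5 with array weights, 4 with the arrays of that state alone and 0 to 3 with each array left out. The count higher was 1, and became 0 with a background of 100, 0 with every row as a feature and 0 to 1 with each array left out. For the difference of changes between HP1βKO and WT, the count higher was 1, and became 3 without the 2 ESC libraries, 2 with the replicate block among ESCs and 0 to 3 with each array left out, while the count lower was 1 and became 0 to 1 with each array left out. Between HP1αKO and WT the count lower was 0, and became 1 without a background limit, 1 with centred arrays, 1 with the variance trend, 2 without the 2 ESC libraries, 2 with the replicate block among ESCs and 0 to 1 with each array left out. Between HP1βKO and HP1αKO the count lower was 2, and became 1 with a background of 100 and 0 to 2 with each array left out. The number of all genes called moved too, from 353 in HP1βKO against WT in EBs to 1435 with array weights, 2043 with the arrays of that state alone, 972 without the 2 ESC libraries and 701 with the block among ESCs, and from 135 in HP1αKO against WT to 1691, 1320, 447 and 279. For the differences of changes it moved without the 2 ESC libraries and with that block from 141 to 628 and 573 (HP1βKO and WT) and from 25 to 161 and 117 (HP1αKO and WT). Without the 2 ESC libraries or with that block, the differences between EB groups kept their size, and only their p-values moved. Sox2 in HP1βKO against WT, for example, stayed at -0.59. The cause of the changed counts was not tested. The replicate block over all 12 arrays changed the call of Nanog alone among the members (HP1αKO against WT in EBs, -1.29, adjusted p = 0.0366), and the block among ESCs changed no call other than those given with the results above. Fits on the arrays of 1 state could not be made for the differences of changes. Replicate spread was larger in ESCs than in EBs while the fit shares 1 spread, and members near the background have uncertain sizes.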
